A study of Homo sapiens and Mus musculus with 19 samples.

Results

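Chromatin-associated RNA (caRNA), the RNA that stays with chromatin after the cytoplasm and nucleoplasm have been washed away, was compared between 3 libraries labelled shMBD6 and 3 libraries labelled shControl, all from K-562 cells with a TET2 knockout (TET2 KO). K-562 is an established human leukaemia cell line with erythroid and megakaryocytic features that carries the BCR-ABL1 fusion. The 6 libraries were chosen by their labels from the 19 of the series. Both groups carried a lentiviral short hairpin RNA under puromycin selection, directed against MBD6 or non-targeting, by the labels and the study's methods, while a sample sheet of the study names the treatments of these libraries siNC and siMBD6. A matched set of 6 libraries from K-562 cells with wild-type TET2 (TET2 WT), again 3 labelled shControl and 3 labelled shMBD6, shared no library with the comparison. It is described only to show where the effects differ, but its libraries entered the same fit and so its filter, scaling and estimate of spread. With only the 6 TET2 KO libraries, 4590 genes were higher and 4146 lower and 1602 changed at least 2-fold. Whether the knockout line was a single clone, and whether replicates came from separate cultures, was not given in the sources used here, so that p-values measure only the spread between these libraries.

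MBD6 is a methyl-CpG-binding-domain protein that associates with PR-DUB, the complex in which the deubiquitinase BAP1 and its ASXL scaffolds remove ubiquitin from histone H2A lysine 119. That ubiquitin is placed by Polycomb repressive complex 1 (PRC1) and is linked to compact, silent chromatin. TET2 is a dioxygenase that oxidises 5-methylcytosine (m5C) in DNA and RNA, and its loss is common in myeloid leukaemia. Because caRNA is rich in nascent, unspliced transcripts, a gene's value in these data reflects reads over its introns as well as its exons.

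Gene counts per library were 63592160 to 92120025 in the shControl group and 65967748 to 78688044 in the shMBD6 group. The number of genes with at least 1 count was 28400 to 29073 in the shControl libraries and 24480 to 26963 in the shMBD6 libraries, with the lowest number in shMBD6 replicate 1. Levels are given as CPM, a gene's share of a library's counts after TMM scaling, in the order of replicates 1, 2 and 3, and changes as the log2 ratio of shMBD6 over shControl with an approximate standard error (SE). The SE is the size of the change divided by the square root of edgeR's F statistic. It was derived from the test and adds nothing to its p-value. The K-562 fusion partners BCR (752 and 743 CPM on average in shControl and shMBD6) and ABL1 (1460 and 1165 CPM) and the erythroid factors GATA1 and TAL1 were present in both groups, whereas HBE1 and HBG2, which overlap each other on the same strand, were listed at 0 counts in all 6 libraries. Of 11 T and B cell markers, 1 reached 1 CPM in either group, and their summed level was 2.27 to 2.73 CPM in shControl and 2.14 to 5.30 CPM in shMBD6. Of 15 monocyte markers, 5 reached 1 CPM in each group and the sum was 92.1 to 97.0 CPM in shControl against 83.6 to 90.3 CPM in shMBD6, with CD14 below 1 CPM in both. The part of other cells in the results was not tested, and in bulk RNA fewer cells of a type cannot be told apart from less RNA per cell.

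The RNA that the hairpin targets was examined first. MBD6 (chromosome 12, 57520710 to 57530148 on the plus strand, GRCh38) stood at 30.6, 30.8 and 29.4 CPM in the shControl libraries and at 30.6, 38.3 and 34.2 CPM in the libraries labelled shMBD6. None of the libraries labelled shMBD6 fell below the shControl range. The log2 change was 0.19 (SE 0.08), with an edgeR adjusted p of 0.057, and in 8 of the 13 alternative analyses the same small increase passed the threshold. In TET2 WT the labels and the RNA ran together, with 43.3, 42.7 and 38.6 CPM in shControl and 31.0, 25.7 and 27.2 CPM in shMBD6 (log2 change -0.57, edgeR adjusted p = 1.8e-07). In TET2 KO the chromatin-associated MBD6 RNA therefore does not show the depletion that the label names, and every difference in the text is between libraries as they were labelled. Whether the labels of these 2 groups were exchanged was not tested, and an exchange would turn every direction given for TET2 KO. Total or cytoplasmic MBD6 RNA and MBD6 protein were not analysed here.

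TET2 RNA, in contrast, was lower in the libraries labelled shMBD6, at 91.9, 101 and 91.6 CPM against 131, 129 and 127 CPM in shControl. The groups did not overlap, and the log2 change was -0.44 (SE 0.04; edgeR adjusted p = 7.2e-11). In TET2 WT it was 118 to 124 CPM in shControl and 117 to 125 CPM in shMBD6. The TET2 gene spans 133942 bases. Of protein-coding genes of 100 to 300 kb with at least 1 CPM, 57.7% were lower in TET2 KO (median -0.21). TET2 also lies in a run of 6 neighbouring lower genes on chromosome 4 (median -0.85). The part of span or position was not tested. Reads over a whole locus of 1 knocked-out gene do not check the knockout itself, since a small deletion leaves the rest of the transcript to be counted.

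**Figure D1:**
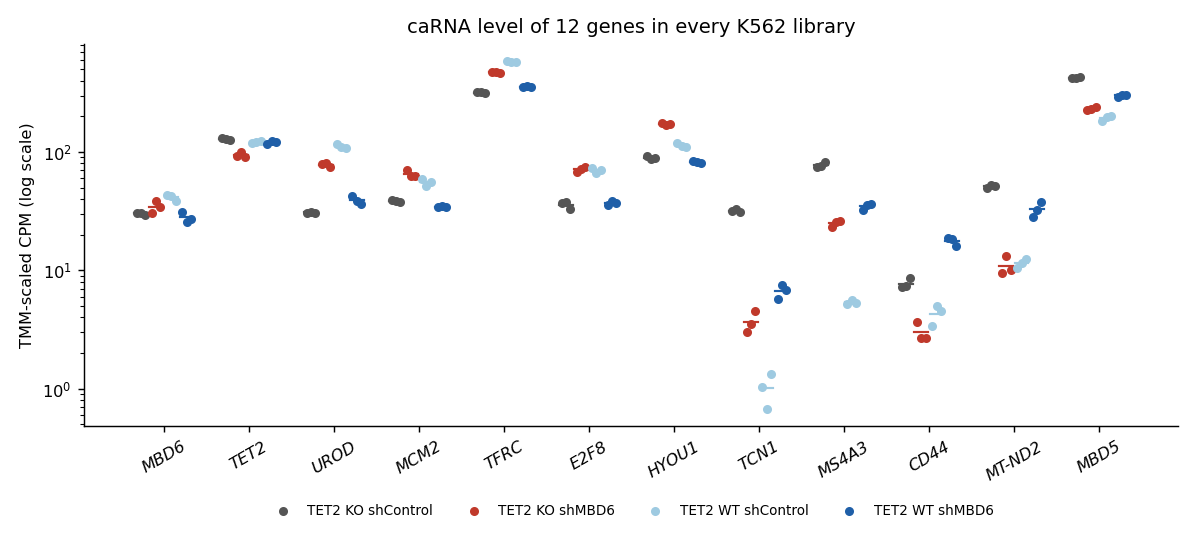
Level of 12 genes in each of the 12 K562 libraries (TMM-scaled CPM on a log axis), with 1 point per library and a bar at the group mean. MBD6 was 30.6 to 38.3 CPM in the TET2 KO libraries labelled shMBD6 and 29.4 to 30.8 CPM in TET2 KO shControl, UROD, MCM2 and HYOU1 were higher, and TCN1, MS4A3, MT-ND2 and MBD5 were lower in TET2 KO shMBD6.

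Of 26023 genes tested, 4095 were higher and 5370 were lower in the libraries labelled shMBD6 at an adjusted p under 0.05, so that 36.4% of all genes were called, 15.7% in the higher and 20.6% in the lower direction. These shares are the background against which gene groups are read. A change of at least 2-fold was called for 377 genes in the higher direction (1.45%) and 1977 in the lower direction (7.6%). The groups did not overlap for 43.8% of genes. Among the 15586 genes with a mean of at least 1 CPM in either group, 53.9% were called, 25.2% higher and 28.8% lower, the 2-fold shares were 1.33% and 7.05%, and the groups did not overlap for 61.1%. At 10 to 100 CPM, 36.4% of genes were higher and 23.7% lower. Of protein-coding genes at that level, 53.6% of those spanning 3 to 10 kb and 46.1% of those spanning 10 to 30 kb were higher. Leaving out shMBD6 replicate 1, the library with the fewest genes detected, gave 4029 higher and 5150 lower. The split depended on the scaling. With each library divided by its own sum of gene counts, 6046 higher and 4047 lower genes were called, and the median over all genes shifted upwards by 0.12 on the log2 scale. A list is for this reason called higher or lower as a whole only where its median lay farther from 0 than 0.12. The direction of a single gene whose change is near that size is likewise uncertain.

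**Figure D2:**
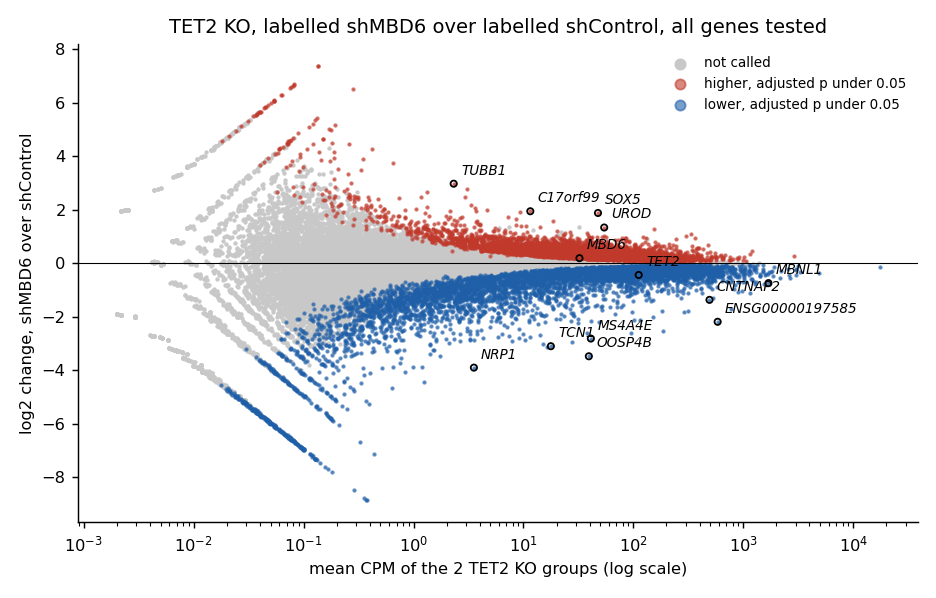
Log2 change of shMBD6 over shControl in TET2 KO (vertical axis) against the mean CPM of both TET2 KO groups (log axis) for the 26023 genes tested, with 4095 genes higher (red) and 5370 lower (blue) at an adjusted p under 0.05. Changes of at least 2-fold were mostly in the lower direction, with 1977 genes lower and 377 higher.

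The genes with the largest increases were of several kinds. By the rule of at least 5 CPM in the higher group and no overlap between groups, the 12 protein-coding or lncRNA genes that rose most were PREX2, TRDN, ST8SIA1, DSC3, C17orf99, AREG, RPS6KL1, SOX5, LINC00656, SERPINF1, KAZALD1 and CCDC148, with log2 changes from 2.76 to 1.56. SOX5, a transcription factor of the SOX family, was at 21.1, 19.7 and 20.4 CPM in shControl and 69.7, 75.2 and 79.8 CPM in shMBD6, a 3.67-fold difference (log2 1.88, SE 0.05; edgeR adjusted p = 7.7e-25). C17orf99 was at 4.6, 5.14 and 4.61 CPM against 19.4, 19.2 and 16.3 CPM (log2 1.94, SE 0.08). AREG encodes amphiregulin, a ligand of the EGF receptor, and was at 1.55, 1.71 and 1.36 CPM against 6.56, 3.95 and 7.04 CPM (log2 1.93, SE 0.20). The rule itself required every shMBD6 library to lie above every shControl library, so that separation is no further support. Only SOX5 and CCDC148 had at least 5 CPM in both groups, and the others met that level in shMBD6 only. The level of AREG was low and its shMBD6 libraries differed among themselves. PREX2, ST8SIA1, C17orf99 and CCDC148 overlap another gene on the same strand in the annotation used here, where reads shared by both genes can go uncounted.

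The largest decreases by the same rule included NRP1, OOSP4B, ENSG00000271955, TCN1, MIR100HG, ENSG00000253377, COL14A1, FBXL7, LRAT, MS4A4E and RNLS, with log2 changes from -3.91 to -2.80. NRP1, a co-receptor for semaphorins and VEGF, was at 7.68, 6.64 and 5.63 CPM in shControl and 0.12, 0.44 and 0.74 CPM in shMBD6 (log2 -3.91, SE 0.35; edgeR adjusted p = 6.3e-11). MIR100HG, a microRNA host transcript, was at 26.1, 27.8 and 25.9 CPM against 1.51, 3.98 and 4.22 CPM (log2 -3.03, SE 0.25). COL14A1, a fibril-associated collagen, was at 12.1, 14.7 and 14.7 CPM against 1.98, 1.5 and 2.05 CPM (log2 -2.91, SE 0.17). The rule required groups that do not overlap, so their separation is no further support. Among the listed decreases, only OOSP4B, ENSG00000253377 and MS4A4E had at least 5 CPM in both groups. The others, NRP1, MIR100HG and COL14A1 among them, met that level in shControl only. NRP1, ENSG00000271955, MIR100HG, ENSG00000253377, FBXL7, LRAT and MS4A4E overlap another gene on the same strand.

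The most abundant genes with a change of at least 1.5-fold were all lower in shMBD6 under TMM scaling. MBNL1, a splicing regulator, was at 2081, 2142 and 2150 CPM in shControl and 1238, 1227 and 1332 CPM in shMBD6 (log2 -0.75, SE 0.03). FGF13, an intracellular FGF homologue that binds sodium channels, was at 1946, 1955 and 1985 CPM against 1129, 1148 and 1166 CPM (log2 -0.77, SE 0.02). ZCCHC7, an RNA-binding subunit of the nuclear TRAMP polyadenylation complex, and the lncRNAs ENSG00000249174, FLJ46284 and MGC4859 had log2 changes of -0.60, -0.71, -0.78 and -0.66. Each of the 6 spans more than 100 kb of the genome, and all but MGC4859 overlap a gene on the same strand.

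The erythroid genes, which encode haemoglobin, haem synthesis, iron handling and the red-cell membrane, were mostly higher. Of 53 tested members, 29 were higher and 5 lower, with a median log2 change of 0.40 against -0.07 over all genes tested. Of the 44 with at least 1 CPM, 29 were higher and 5 lower, against 25.2% and 28.8% of all genes at that level. Among the 9 haem synthesis enzymes, 5 were higher. UROD, uroporphyrinogen decarboxylase, was at 30.7, 31.3 and 30.7 CPM in shControl and 78.5, 80.4 and 74.2 CPM in shMBD6, which is 2.52-fold higher (log2 1.33, SE 0.05; edgeR adjusted p = 1.0e-19). PPOX, protoporphyrinogen oxidase, was at 14.9, 14.1 and 15.8 CPM against 33.0, 27.8 and 31.3 CPM (log2 1.04), and UROS and FECH had log2 changes of 0.81 and 0.56. The groups did not overlap for any of these 4. ALAS2, the erythroid form of the enzyme that starts the pathway, moved the other way, from a mean of 31.2 to 21.9 CPM (log2 -0.51, edgeR adjusted p = 3.6e-07).

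Among the 17 membrane and blood group genes, 11 were higher and 1 was lower. SPTB, the beta chain of erythroid spectrin, was at 84.3, 81 and 83.7 CPM in shControl and 164, 166 and 158 CPM in shMBD6 (log2 0.97, SE 0.04; edgeR adjusted p = 5.3e-21), and the groups did not overlap. The glycophorin gene GYPB and the blood group genes KEL and ERMAP had log2 changes of 0.93, 0.90 and 0.86. EPB41, which encodes protein 4.1, was the lower member (log2 -0.15), a change close in size to the 0.12 by which scaling moved all genes.

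Iron genes followed a similar count, with 6 of 9 tested higher. TFRC, the transferrin receptor, was at 319, 320 and 315 CPM in shControl and 474, 472 and 466 CPM in shMBD6 (log2 0.56, SE 0.03), and the iron exporter SLC40A1 had a log2 change of 0.97. SLC25A37, which imports iron into mitochondria, and the ferritin light chain FTL were lower (log2 -0.34 and -0.41). Globins were close to the detection floor: HBG1 was at 0.80, 1.24 and 0.94 CPM against 4.28, 2.12 and 1.91 CPM (log2 1.49, SE 0.27), and 6 of the 8 tested globin genes were not called. The globin genes are near-identical copies and several overlap, so their counts are uncertain, as are those of SPTB for overlap on the same strand.

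Promoters of the erythroid genes that rose were read from RefSeq (GRCh38.p14), each 250 bases before to 50 bases after the gene start, to show what these members share outside the counts. GATA sites (AGATAA or TGATAA, either strand) bind GATA1, the main erythroid transcription factor. Of the 29 genes, 22 had an entry and 9 of these held the motif (40.9%), against 11.5% of the 15116 promoters of tested genes that had an entry. The motif was also found in 1 of 3 promoters of erythroid genes that fell and in 4 of 10 of myeloid genes that fell. The promoter of SPTB, the member with the largest increase among those 9, covers chr14:64879858-64880157 on the minus strand and is shown 5′ to 3′ with its match in capitals.
SPTB: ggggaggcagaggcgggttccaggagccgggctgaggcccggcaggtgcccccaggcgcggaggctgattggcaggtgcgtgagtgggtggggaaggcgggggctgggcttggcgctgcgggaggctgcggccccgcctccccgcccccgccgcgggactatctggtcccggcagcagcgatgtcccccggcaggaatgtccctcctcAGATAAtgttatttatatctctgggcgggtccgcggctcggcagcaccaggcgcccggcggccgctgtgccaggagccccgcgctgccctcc

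Regulators of the lineage moved in both directions. Of 12 erythroid transcription factors in the haematopoietic list, 5 were higher and 4 lower. KLF1, the erythroid Krüppel-like factor, was at 8.68, 8.15 and 7.0 CPM in shControl and 12.9, 12.2 and 11.3 CPM in shMBD6 (log2 0.61, SE 0.11), and GATA1 averaged 34.9 against 46.4 CPM. LMO2, GFI1B and SOX6 had log2 changes of 0.87, 0.85 and 0.65. Of 18 stem and progenitor factors, 3 were higher and 9 lower. The K-562 identity list, which shares members with the erythroid list, had 7 of 11 tested genes higher and 1 lower, ABL1, with a median of 0.36.

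Megakaryocyte and platelet genes had no common direction by call. Of 30 tested, 6 were higher and 8 lower, with a median of -0.20. TUBB1, the platelet beta-tubulin, rose from 0.26, 0.68 and 0.66 CPM to 5.83, 2.97 and 3.52 CPM (log2 2.97, SE 0.28; edgeR adjusted p = 3.5e-10). The thrombin receptor F2RL3 and the ADP receptor P2RY1 were higher, with log2 changes of 0.94 and 0.87. CD36 was called higher at about 1 CPM (log2 1.34, edgeR adjusted p = 0.013) and missed the threshold when shControl replicate 1 or shMBD6 replicate 2 was left out.

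Among myeloid differentiation genes, decreases outnumbered increases. Of 29 tested, 12 were lower and 2 higher, with a median of -0.85, although 13 of the 29 stayed below 1 CPM in both groups. TCN1, a vitamin B12 carrier of neutrophil granules, was at 31.4, 33.1 and 31.0 CPM in shControl and 3.02, 3.54 and 4.51 CPM in shMBD6, an 8.61-fold decrease (log2 -3.11, SE 0.16; edgeR adjusted p = 4.8e-17). MS4A3, a marker of granulocyte and monocyte progenitors, was at 74.3, 75.4 and 81.8 CPM against 23.2, 25.4 and 26.2 CPM (log2 -1.63, SE 0.07). MS4A2, a chain of the high-affinity IgE receptor, had a log2 change of -2.64. SPI1, the factor PU.1, averaged 35.6 CPM in shControl and 35.7 CPM in shMBD6, and CEBPA and CEBPD stayed below 1 CPM. EGR1 and CEBPB were the members that were higher (log2 0.77 and 0.29). Of the 12 tested monocyte markers, which share members with this list, 4 were lower and the other 8 were not called.

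TCN1, MS4A2 and MS4A3 are neighbours on chromosome 11, and 10 genes in a row there were lower (59713456 to 60318080, GRCh38, counting protein-coding and lncRNA genes with at least 1 CPM). The run holds STX3, MRPL16, TCN1, OOSP3, OOSP4B, MS4A3, MS4A2, MS4A6A, MS4A4A and MS4A4E. The changes within it were uneven. STX3 was at 170, 163 and 171 CPM against 140, 149 and 136 CPM (log2 -0.25), whereas OOSP4B, in the same run, was at 66.7, 77.7 and 72.4 CPM against 6.11, 6.24 and 7.01 CPM (log2 -3.48, SE 0.14). MS4A4A, the most abundant of the MS4A genes, had a log2 change of -0.81 and MS4A4E one of -2.82. Across the genome, runs of at least 6 neighbouring genes called in 1 direction numbered 40 for lower and 12 for higher, with median lengths of 2.50 and 0.24 Mb. The longest run of higher genes held 9 genes. The runs were picked from their calls and are given as a description.

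**Figure D3:**
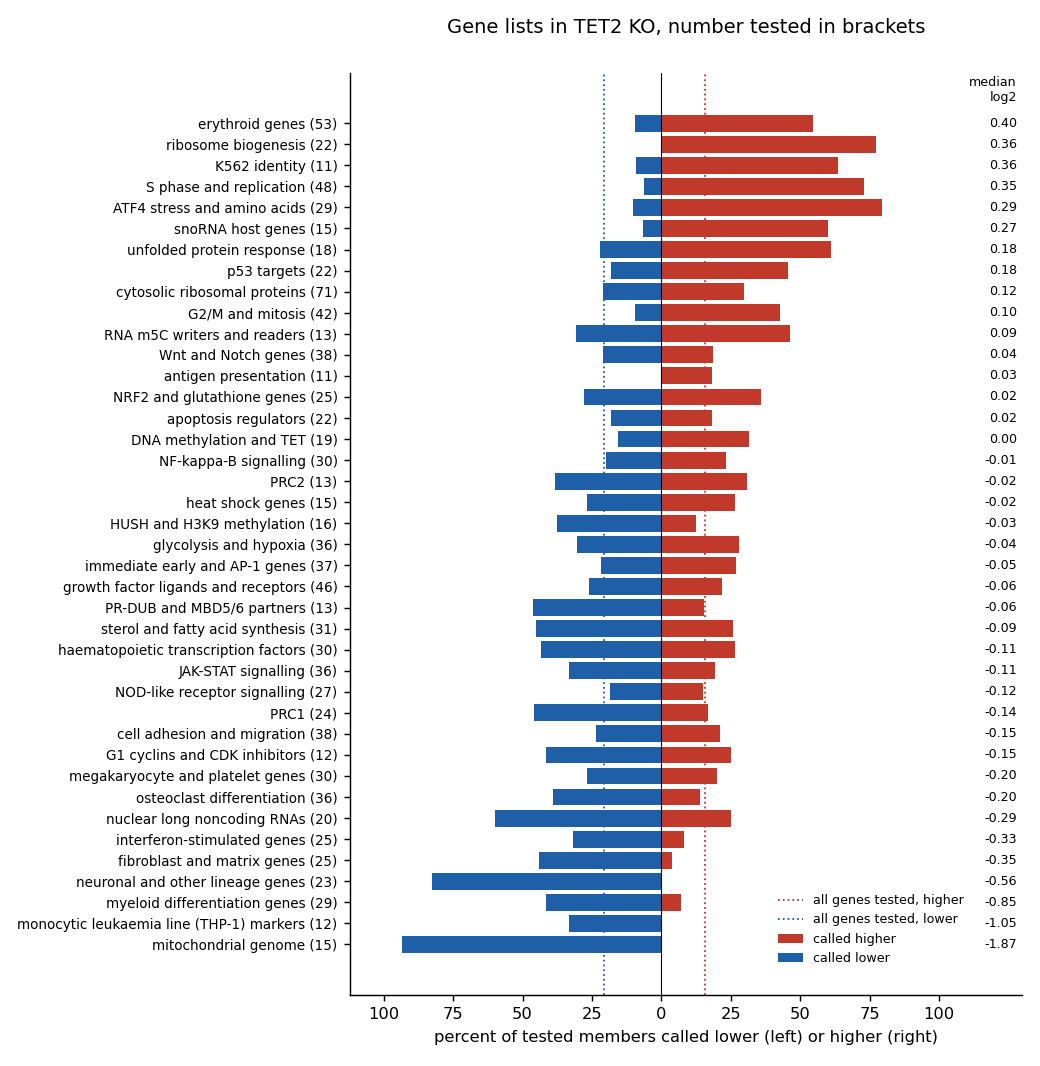
Percent of the tested members of each gene list called higher (red, to the right) or lower (blue, to the left) in TET2 KO shMBD6 over shControl, with the median log2 change at the right margin and dotted lines at the 15.7% and 20.6% of all genes called higher and lower. Erythroid, ribosome biogenesis, S phase and ATF4 genes were mostly higher, mitochondrial genome and other-lineage genes were mostly lower, and 12 of 29 myeloid genes were lower. Lists with fewer than 10 tested members are left out.

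Genes of DNA replication were higher in the libraries labelled shMBD6. Of 48 tested S phase genes, 35 were higher and 3 lower, with a median of 0.35. Of the 45 with at least 1 CPM, 34 were higher and 3 lower, against 25.2% and 28.8% of all genes at that level. Of the 16 licensing and helicase genes, which load and fire replication origins, 14 were higher and the other 2 were not called. MCM2, a subunit of the replicative helicase, was at 39.1, 38.7 and 37.7 CPM in shControl and 69.8, 63.2 and 62.9 CPM in shMBD6 (log2 0.76, SE 0.06; edgeR adjusted p = 1.1e-12), and MCM3, MCM6 and CDC6 had log2 changes of 0.58, 0.62 and 0.60. E2F8, an atypical E2F repressor, was at 36.9, 37.5 and 32.8 CPM against 68.3, 72.5 and 74.3 CPM (log2 1.01, SE 0.06). The sliding clamp PCNA and the GINS subunit GINS2 had changes of 0.73 and 0.72. The lower members were RFC3, POLA1 and BRCA1 (log2 -0.37, -0.33 and -0.13), all of which overlap another gene on the same strand, as does PCNA. The change of BRCA1 was close in size to the 0.12 by which scaling moved all genes.

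E2F sites (TTTCCCGC, TTTGGCGC or TTTCGCGC, either strand) are a known feature of replication genes. Of the 35 that rose, 28 had a RefSeq promoter and 17 of these held the motif (60.7%), against 3.83% of the promoters of all tested genes and 6.25% of those of all genes called higher. It was also in 2 of the 3 promoters of S phase genes that fell. The promoter of MCM2, the largest increase among the 17, covers chr3:127598161-127598460 on the plus strand. Its 2 overlapping matches are in capitals.
MCM2: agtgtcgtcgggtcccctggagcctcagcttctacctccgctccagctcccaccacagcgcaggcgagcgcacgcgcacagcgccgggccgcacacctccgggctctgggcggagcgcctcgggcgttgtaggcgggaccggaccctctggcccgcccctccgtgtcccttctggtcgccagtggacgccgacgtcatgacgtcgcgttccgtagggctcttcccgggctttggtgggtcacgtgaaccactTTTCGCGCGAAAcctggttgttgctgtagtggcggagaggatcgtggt

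Mitotic genes showed smaller changes. Of 42 tested, 18 rose and 4 fell, with a median (0.10) within the range by which scaling moves all genes. The largest increases among called members were those of CDC25A, KIF20A, CCNB2 and KIF2C, with log2 changes from 0.44 to 0.36. KIF2C, a microtubule depolymerase, was at 142, 140 and 142 CPM against 191, 180 and 173 CPM. Among 12 G1 cyclins and CDK inhibitors, 3 were higher and 5 lower. CDKN1A, which encodes p21, was at 4.29, 4.88 and 3.37 CPM in shControl and 0.78, 2.24 and 1.80 CPM in shMBD6 (log2 -1.37, SE 0.23), RB1 had a change of -0.89, and CDK4 and CDKN1B had changes of 0.77 and 0.58. Of 22 tested p53 targets, 10 were higher and 4 lower, with GADD45A and AEN higher (0.76 and 0.64) and BTG2 lower (-0.98) beside CDKN1A. K-562 cells lack functional p53, which is background to that list. Apoptosis regulators were split, with 4 of 22 higher and 4 lower. MCL1 was higher (log2 0.57), while CFLAR and BCL2L1 were lower (-0.50 and -0.40).

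Genes that make ribosomes were higher. Of 22 tested ribosome biogenesis genes, which serve RNA polymerase I and the nucleolus, 17 were higher and the other 5 were not called (median 0.36). All 22 had at least 1 CPM, a level at which 25.2% of all genes were higher. RRN3, an initiation factor of RNA polymerase I, was at 4.6, 5.28 and 4.57 CPM in shControl and 9.37, 8.24 and 9.84 CPM in shMBD6 (log2 0.93, SE 0.14; edgeR adjusted p = 3.1e-06), and BYSL, PES1 and POLR1B had log2 changes of 0.65, 0.52 and 0.42. Of 15 tested host genes of small nucleolar RNAs, 9 were higher and 1 lower (median 0.27). SNHG15, SNHG1 and SNHG8 had changes of 0.77, 0.66 and 0.60, and SNHG14 one of -0.73. All 4 overlap other genes on their strand. The ribosomal protein genes themselves were mixed, with 21 of 71 higher and 15 lower. RPL34 was at 34.2, 34.6 and 33.5 CPM against 55.1, 53.9 and 55.0 CPM (log2 0.68), whereas RPL37A was at 83.5, 78.9 and 81.6 CPM against 52.8, 50.1 and 51.5 CPM (log2 -0.66), and RPS15 and RPLP2 were lower as well (-0.70 and -0.67).

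The ATF4 programme, by which cells under amino acid or endoplasmic reticulum stress raise transporters and biosynthetic enzymes, had 23 of 29 tested members higher and 3 lower (median 0.29). All 29 had at least 1 CPM, a level at which 25.2% of all genes were higher and 28.8% lower. SLC7A1, a transporter of cationic amino acids, was at 202, 197 and 198 CPM in shControl and 293, 287 and 285 CPM in shMBD6 (log2 0.53, SE 0.03; edgeR adjusted p = 3.7e-16). DDIT4, an inhibitor of mTORC1 signalling, and PCK2, the mitochondrial phosphoenolpyruvate carboxykinase, had changes of 0.61 and 0.54, and VLDLR one of 0.89 at about 5 CPM. Of 18 genes of the unfolded protein response, 11 were higher and 4 lower (median 0.18), and all 18 had at least 1 CPM as well. HYOU1, a chaperone of the endoplasmic reticulum, was at 91.8, 86.7 and 88.1 CPM against 175, 170 and 171 CPM (log2 0.95, SE 0.04), and HSPA5, the chaperone BiP, at 89.2, 93.2 and 88.1 CPM against 146, 153 and 145 CPM (log2 0.72, SE 0.04). CANX and XBP1 had changes of 0.63 and 0.55. Heat shock genes were split, with 4 of 15 higher and 4 lower. The mitochondrial chaperones HSPD1 and HSPA9 were higher (0.50 and 0.33), and HSPB1 and HSPH1 were lower (-1.32 and -0.93).

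The endoplasmic reticulum stress element, known as ERSE and read on either strand, was found in 5 of the 11 promoters of unfolded protein response genes that rose (45.5%) and in 15 of the 15116 promoters of all tested genes. HSPA5 had the largest increase among the 5. Its promoter covers chr9:125241294-125241593 on the minus strand, with the match in capitals. For the ATF4 list, the composite element (TGATGNAA, either strand) was found in 2 of 19 promoters (10.5%) against 2.37% of all tested, and no promoter is printed.
HSPA5: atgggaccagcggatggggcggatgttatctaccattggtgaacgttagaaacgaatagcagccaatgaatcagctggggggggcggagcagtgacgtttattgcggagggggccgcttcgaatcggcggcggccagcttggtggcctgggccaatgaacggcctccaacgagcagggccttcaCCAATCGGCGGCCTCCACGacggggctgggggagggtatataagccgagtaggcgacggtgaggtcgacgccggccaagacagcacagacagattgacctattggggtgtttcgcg

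Signalling genes had no common direction in most lists. Of 36 tested JAK-STAT genes, 7 were higher and 12 lower (median -0.11). SOCS3, the feedback inhibitor of cytokine receptors, was at 14.7, 13.5 and 12.8 CPM in shControl and 6.56, 7.54 and 7.54 CPM in shMBD6 (log2 -0.92, SE 0.12; edgeR adjusted p = 1.0e-07). The receptor chains IL6R, OSMR and CSF2RB were lower too, with changes of -1.64, -0.91 and -0.80. Of 30 NF-kappa-B genes, 7 were higher and 6 lower, with CXCL2 higher (0.97) and RELB, IL6 and BCL3 lower (-1.12, -1.08 and -0.57), all at under 7 CPM. BCL3 missed the threshold without shControl replicate 1 or shMBD6 replicate 1. Of 27 genes of NOD-like receptor signalling, 4 were higher and 5 lower. The DNA sensor AIM2 and the effectors IL18 and CASP4 had changes of -1.16, -0.99 and -0.98, and P2RX7 was at 29.9, 26.7 and 25.2 CPM against 18.6, 14.1 and 16.6 CPM (-0.73).

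Of 36 tested genes of osteoclast differentiation, 14 were lower and 5 higher (median -0.20). MITF was at 359, 361 and 374 CPM in shControl and 233, 241 and 232 CPM in shMBD6 (log2 -0.63, SE 0.03), the receptor FCGR2B was lower (-0.94), and SOCS3 is counted here as well. Immediate early and AP-1 genes were split, with 10 of 37 higher and 8 lower. BATF3, PHLDA1, FOSB and DUSP4 were lower (-1.34, -1.12, -1.31 and -1.33) at levels of about 5 CPM or less, and the call of FOSB was lost without shControl replicate 1 and that of DUSP4 without shControl replicate 1 or 3 or shMBD6 replicate 2. Of 25 interferon-stimulated genes, 8 were lower and 2 higher (median -0.33). MX2 was at 7.90, 7.98 and 7.65 CPM against 3.46, 3.41 and 3.23 CPM (log2 -1.22, SE 0.18), and the RNA sensor IFIH1, XAF1 and OAS3 had changes of -2.08, -1.45 and -0.99. Antigen presentation genes were mostly uncalled, with 2 of 11 higher, 1 of them TAPBP (0.62, edgeR adjusted p = 0.031), which missed the threshold without any 1 of shControl replicates 2 and 3 and shMBD6 replicates 1 and 3.

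Growth factor genes were divided, with 10 of 46 higher and 12 lower. BMP6 was at 2.88, 2.44 and 1.95 CPM in shControl and 0.43, 0.50 and 0.51 CPM in shMBD6 (log2 -2.34, SE 0.31), and HBEGF was lower as well (-1.80). TGFB3 was higher (1.46), as was AREG above. Of 38 Wnt and Notch genes, 7 were higher and 8 lower. MAML3, a Notch coactivator, was at 126, 121 and 122 CPM against 55.1, 49.0 and 51.5 CPM (log2 -1.25, SE 0.05; edgeR adjusted p = 9.1e-20), and the receptors NOTCH1 and NOTCH2 and the ligand WNT9A had changes of -0.72, -0.99 and -1.97. WNT9A, MAML3 and NOTCH1 overlap another gene on the same strand.

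Genes of glycolysis and antioxidant defence were divided, and more sterol genes were lower than higher. Of 36 genes of glycolysis and hypoxia, 10 were higher and 11 lower. HK2, a hexokinase, was at 25.2, 24.2 and 23.8 CPM in shControl and 42.6, 42.8 and 42.8 CPM in shMBD6 (log2 0.81, SE 0.07), and the glucose transporter SLC2A1 had a change of 0.75, while the hypoxia target NDRG1 and the neuronal enolase ENO2 were lower (-0.85 and -0.67). Of 20 tested sterol synthesis and uptake genes, 10 were lower and 2 higher, among them FDFT1 (144, 147 and 150 CPM against 92.3, 99.1 and 93.8 CPM, log2 -0.63) and HMGCS1 (-0.59), with PMVK higher (0.83). Of 11 fatty acid synthesis genes, 6 were higher and 4 lower, with FADS2 at 0.75. Of 25 NRF2 and glutathione genes, 9 were higher and 7 lower. KEAP1, NQO1 and GSS were higher (0.56, 0.51 and 0.50) and AKR1C2 was lower (-0.50).

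Neuronal and matrix genes were lower, whereas adhesion and epithelial genes were divided. Of 23 genes of neuronal and other lineages, 19 were lower and the other 4 were not called (median -0.56). All 23 had at least 1 CPM, a level at which 28.8% of all genes were lower. Of protein-coding genes longer than 300 kb at that level, 72.8% were lower (median -0.51). CNTNAP2, a neurexin-family adhesion gene, was at 699, 702 and 732 CPM in shControl and 275, 269 and 279 CPM in shMBD6 (log2 -1.37, SE 0.03; edgeR adjusted p = 1.9e-27), and NRXN3, DLG2 and CDH12 had changes of -1.40, -1.40 and -1.93. All 4 overlap other genes on the same strand, and long genes as a class were lower, as given further on. Of 25 matrix genes, 11 were lower and 1 higher (median -0.35). The collagens COL14A1 and COL1A1 had changes of -2.91 and -2.29, the proteoglycan DCN one of -1.90, and COL6A1 one of -1.27, whose call was lost without any of 4 libraries, namely shControl replicates 1 and 2 and shMBD6 replicates 2 and 3. Adhesion genes were split, with 8 of 38 higher and 9 lower. CD44, the hyaluronan receptor, was at 7.23, 7.35 and 8.52 CPM against 3.64, 2.68 and 2.66 CPM (log2 -1.37, SE 0.15), ITGA6 and ITGA1 were lower (-1.31 and -1.03) and ITGA4 was higher (0.99). The call of ITGA1 was lost without shControl replicate 1 or shMBD6 replicate 1, and that of ITGA6 without shControl replicate 2 or shMBD6 replicate 1. Of 6 tested epithelial markers, whose median was 0.21, EPCAM was higher (0.91), as was PAX2 below 1 CPM with overlapping groups (1.77), and KRT19, KRT18 and KRT8 were lower (-0.61, -0.30 and -0.21). KRT18, whose groups overlapped, lost its call when shControl replicate 1 or 3 or shMBD6 replicate 1 or 3 was left out. Its call was also lost with total gene counts, no filter, only the 6 TET2 KO libraries, DESeq2 size factors and DESeq2. KRT8 lost its call with total gene counts (-0.08).

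Chromatin genes linked to MBD6 were followed as 6 lists. Of the 13 tested PR-DUB genes and MBD5/6 partners, 2 were higher and 6 lower, against 15.7% and 20.6% over all genes. Of the 12 with at least 1 CPM, 2 were higher and 5 lower, against 25.2% and 28.8% of all genes at that level. Above 100 CPM, where MBD5 and OGT lie, 24.6% of genes were higher and 53.3% lower. MBD5, the closest relative of MBD6, was at 419, 427 and 433 CPM in shControl and 227, 233 and 238 CPM in shMBD6 (log2 -0.87, SE 0.03; edgeR adjusted p = 6.0e-21), though it overlaps another gene on its strand. BAP1, the deubiquitinase, was at 23.4, 18.7 and 20.4 CPM against 34.1, 29.4 and 29.3 CPM (log2 0.57, SE 0.08), and OGT, the O-GlcNAc transferase that binds the complex, at 1014, 995 and 1013 CPM against 1407, 1395 and 1364 CPM (log2 0.46, SE 0.02). ASXL1 averaged 243 and 240 CPM, and ASXL2, KDM1B, FOXK1 and HCFC1 had changes of -0.19, -0.24, -0.28 and -0.21. ASXL3 was below 1 CPM in both groups.

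Of 24 PRC1 genes, 4 were higher and 11 lower (median -0.14). All 24 had at least 1 CPM, a level at which 25.2% of all genes were higher and 28.8% lower. Above 100 CPM, 53.3% of all genes were lower. Over the alternative analyses the PRC1 median ran from -0.14 to -0.0098. BCOR was at 269, 271 and 273 CPM in shControl and 417, 424 and 413 CPM in shMBD6 (log2 0.63, SE 0.03), while PCGF5 and AUTS2 were lower (-0.68 and -1.25), as was RING1 at about 2 CPM (-0.82), a call that was lost without shControl replicate 2 or shMBD6 replicate 3. Of 13 PRC2 genes, 4 were higher and 5 lower. PHF19 and EZH1 had changes of 0.46 and 0.41, and LCORL and AEBP2 of -0.78 and -0.53. Of 16 genes of the HUSH complex and H3K9 methylation, 2 were higher, among them SUV39H1 (0.69), and 6 were lower, among them ATF7IP, ATRX and PPHLN1 (-0.42, -0.38 and -0.34).

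Of 19 genes of DNA methylation and the TET family, 6 were higher and 3 lower. The methyl-CpG reader MBD2 was lower beside TET2 (-0.29), and TDG, IDH1, IDH2 and UHRF1 were higher (0.40, 0.27, 0.50 and 0.40). TET1 averaged 283 and 279 CPM and TET3 191 and 182 CPM, neither of which was called, and the maintenance methyltransferase DNMT1 had a log2 change of 0.02. Of 13 writers and readers of RNA m5C, 6 were higher and 4 lower. NSUN2, the main writer in messenger RNA, had a change of 0.19 and the export reader ALYREF one of 0.46. PSPC1, a paraspeckle protein, was at 253, 259 and 247 CPM against 203, 192 and 195 CPM (log2 -0.37, SE 0.03), and NSUN7 was lower at about 1 CPM (-1.31), a call that was lost without shControl replicate 3.

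RNA from the mitochondrial genome was lower. Of 15 tested transcripts, 14 were lower, with a median of -1.87. MT-ND2, a subunit of respiratory complex I, was at 50.1, 52.7 and 51.6 CPM in shControl and 9.47, 13.3 and 10.1 CPM in shMBD6 (log2 -2.23, SE 0.11; edgeR adjusted p = 3.2e-17). MT-CO1 and MT-CO2, of complex IV, had changes of -0.95 and -2.09, MT-RNR2, the large ribosomal RNA, one of -2.16, and MT-CYB was not called (0.03). The share of gene counts on the mitochondrial genome was 0.054%, 0.052% and 0.048% against 0.026%, 0.027% and 0.023%. The groups did not overlap, and the exact permutation test gave p = 0.1, the smallest that 3 libraries against 3 allow (adjusted p = 0.12 over 12 shares). Mitochondrial RNA is not bound to nuclear chromatin, and the part of carry-over into the fraction was not tested.

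Long noncoding RNAs were lower in number and in share. Of the 2639 lncRNA genes with at least 1 CPM, 349 were higher and 906 lower (median -0.20), against 25.2% higher and 28.8% lower over all genes at that level. They took 12.93% of gene counts on average in shControl (SD 0.061, n = 3) and 10.99% in shMBD6 (SD 0.042, n = 3), and the groups did not overlap. Genes with LINC symbols, which are intergenic, were lower in 220 of 460 and higher in 57 (median -0.45), whereas transcripts divergent from a promoter were balanced, with 36 of 240 higher and 38 lower. Of 20 tested nuclear lncRNAs, 12 were lower and 5 higher (median -0.29). NEAT1, the scaffold of paraspeckles, took 0.167%, 0.162% and 0.164% of counts in shControl and 0.130%, 0.132% and 0.131% in shMBD6, while MALAT1, the most abundant, took 1.64% to 1.72% and 1.62% to 1.67%, with overlapping groups (exact permutation p = 0.3). XACT was at 1071, 1138 and 1137 CPM against 671, 694 and 708 CPM (log2 -0.69, SE 0.03), PCAT1 had a change of -0.87, and MIR17HG, the host of the miR-17-92 cluster, was higher (0.58). XACT, PCAT1 and MIR17HG overlap other genes on their strand.

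The change followed the genomic span of a gene. Among protein-coding genes with at least 1 CPM, those of 3 to 10 kb had 556 of 1490 higher and 115 lower (median 0.25), those of 30 to 100 kb were balanced with 1260 of 4183 higher and 1128 lower (median 0.01), and those longer than 300 kb had 36 of 687 higher and 500 lower (median -0.51). Across the 12064 genes, Spearman's rho of change against span was -0.43, a correlation across genes of the same libraries, which are not independent replicates. It was -0.38 over the 5802 genes at 10 to 100 CPM. Genes longer than 300 kb took 14.5%, 14.6% and 14.6% of all gene counts in shControl and 12.7%, 12.6% and 12.8% in shMBD6, and genes of at most 30 kb took 10.6%, 10.5% and 10.4% against 12.9%, 12.9% and 12.7%. Neither pair of groups overlapped (exact permutation p = 0.1 each, the smallest possible). UROD spans 4626 bases and was higher, and FGF13 spans 608051 bases and was lower, but SOX5, which spans 1033041 bases, was higher. The part of span in the changes of the gene lists was not tested.

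**Figure D4:**
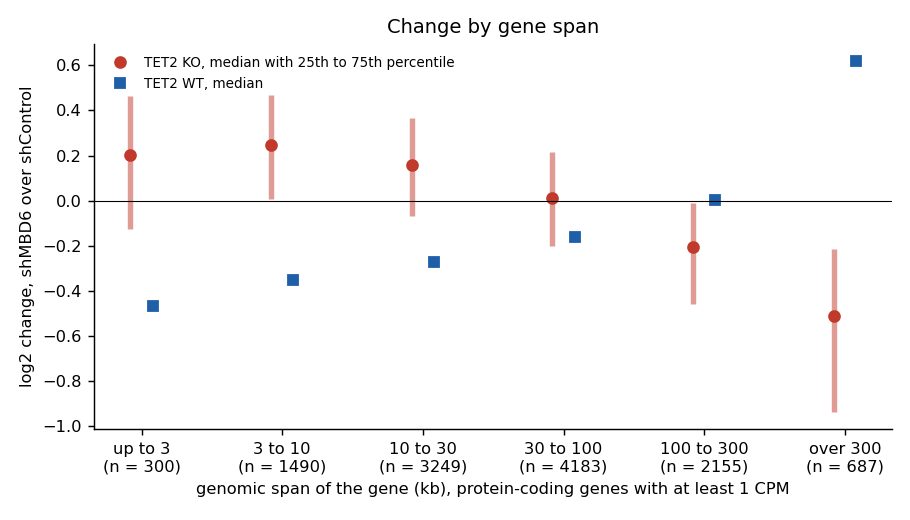
Median log2 change of shMBD6 over shControl for protein-coding genes with at least 1 CPM, by genomic span in kb, in TET2 KO (red circles, with lines from the 25th to the 75th percentile of genes) and in TET2 WT (blue squares). The TET2 KO median ran from 0.25 at 3 to 10 kb to -0.51 above 300 kb, and the TET2 WT median ran the opposite way, from -0.35 to 0.62.

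Most genes of low level were not called, and those that were called were mostly lower. Of the 7282 genes with a mean of 0.1 to 1 CPM, 774 were lower and 139 higher (median -0.32), and of the 3698 below 0.1 CPM, 303 were lower and 61 higher. Such genes could pass the filter through a TET2 WT group. In TET2 WT, 183 of these 3698 were higher and 4 lower (median 1.08). The median over all genes was -0.07 in the main fit and 0.001 with only the 6 TET2 KO libraries. The part of the filter was not tested. Of the 1977 genes lower by at least 2-fold, 754 lay at 0.1 to 1 CPM and 303 below that. Olfactory receptor genes took 0.0229% of gene counts in shControl and 0.0175% in shMBD6 on average. Reads outside annotated genes made up 15.0% of records in shControl and 15.1% in shMBD6. At 10 to 100 CPM, 2425 of 6660 genes were higher and 1580 lower, and above 100 CPM 678 of 2758 were higher and 1471 lower.

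The same contrast in TET2 WT, which used other libraries, ran the opposite way for most genes. Of 6710 genes called in both genotypes, 5923 (88.3%) changed in opposite directions, 3275 of them higher in TET2 KO and lower in TET2 WT, and 787 changed in the same direction. Among genes with at least 1 CPM, Pearson's r between the log2 changes was -0.72 and Spearman's rho -0.72 (15586 genes, across genes of the same 12 libraries). The difference between the 2 effects was called for 12852 genes (49.4%), and for 69.1% of those with at least 1 CPM. In TET2 WT alone, 42.5% of genes were called, 17.7% higher and 24.7% lower, and 63.2%, 22.4% and 40.8% of those with at least 1 CPM. The erythroid list, with a median of 0.40 in TET2 KO, had -0.40 in TET2 WT, S phase genes had 0.35 and -0.40, ribosome biogenesis genes 0.36 and -0.62, and the mitochondrial genome -1.87 and 1.54.

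Single genes show the reversal in every library. UROD was at 118, 110 and 107 CPM in TET2 WT shControl and 42.2, 38.4 and 36.6 CPM in TET2 WT shMBD6, where the TET2 KO values were 30.7 to 31.3 and 74.2 to 80.4 CPM. TCN1 was at 1.02, 0.67 and 1.33 CPM and 5.72, 7.56 and 6.76 CPM in TET2 WT, with 31.0 to 33.1 and 3.02 to 4.51 CPM in TET2 KO. TET2 and MBD6 were among the genes whose effects differed, by -0.45 (SE 0.06) and 0.75 (SE 0.11) on the log2 scale (edgeR adjusted p = 5.0e-08 and 4.5e-07). Since MBD6 RNA fell in the TET2 WT libraries labelled shMBD6 and not in those of TET2 KO, the 2 contrasts are not the same measured change in MBD6, and genotype cannot be told apart from that difference.

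**Figure D5:**
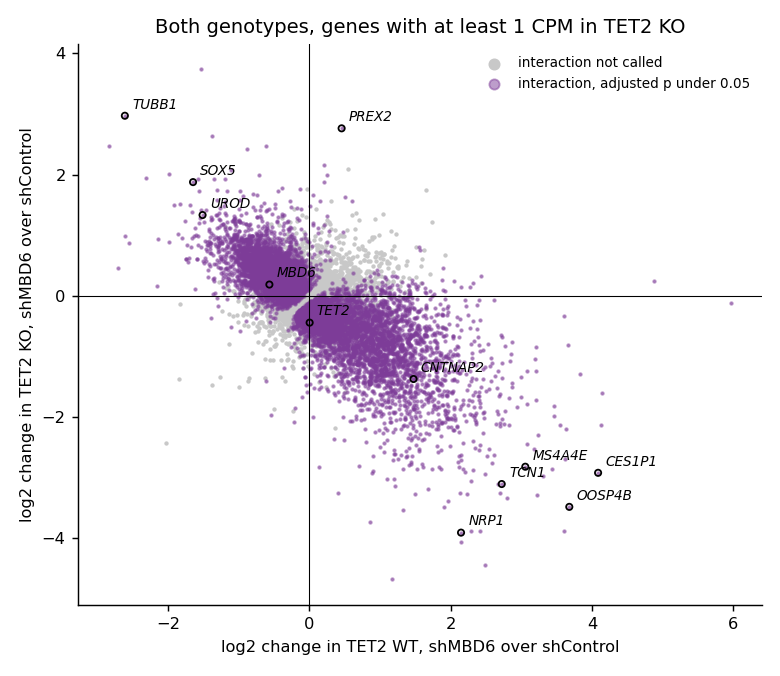
Log2 change of shMBD6 over shControl in TET2 KO (vertical axis) against that in TET2 WT (horizontal axis) for 15586 genes with at least 1 CPM in a TET2 KO group, with genes whose effects differed between genotypes in purple. Most points lie in the upper left and lower right, where the signs are opposite (Pearson's r -0.72).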

How the data were processed

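Chromatin-associated RNA libraries of K-562 cells were compared. The authors made whole-number read counts per gene, and these raw counts were deposited as 1 table per library. The submitters' processing notes and the study's methods name Trimmomatic 0.39, HISAT2 2.2.1, the hg38 genome and HTSeq 0.12.4, with GENCODE release 29. The methods name featureCounts as well for caRNA, without a version there, and the tables end in the summary lines that HTSeq writes. Reads shared by overlapping genes are held in lines that name no gene. These lines were left out of library sizes and tests, and reads outside annotated genes were 15.0% of records. The files hold 0 spike-in lines, so every change is relative to the rest of the library. Of the gene identifiers, 99.1% matched GENCODE release 44, which gave positions, spans, biotypes and overlaps between genes. Whether each overlap was already in release 29 and removed reads from the counts was not checked. Promoters came from RefSeq.

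Genes passing filterByExpr by group were fitted with TMM scaling in edgeR 4.0.16 (robust quasi-likelihood test, R 4.3.3, limma 3.58.1) over all 12 K562 libraries in 4 groups, with Benjamini-Hochberg adjustment over 26023 genes and a threshold of 0.05. The difference between genotypes was the interaction contrast. Shares of counts were compared by an exact two-sided permutation test. The scripts were tested on simulated data. Alternatives were size factors of DESeq2 1.42.0, total gene counts, other filters, only the TET2 KO libraries, a replicate block, DESeq2 itself and leaving out each library.

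The comparison, gene lists and tests were chosen with earlier results of these data known. Named genes were MBD6, TET2 and called members of the PR-DUB, m5C and TET lists, the 12 largest changes each way at 5 CPM or more with groups that do not overlap, up to 4 called members of each list by size of change at 1 CPM or more with up to 2 defining members not called, the 6 most abundant genes changed at least 1.5-fold, and the 8 largest interaction effects. Other genes named were chosen after their values were seen. Some genes that the rule names are not reported here.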

Additional observations from a re-analysis of the deposited data

Results flagged for a closer look

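The effect of the shMBD6 label differed between TET2 KO and TET2 WT for 12852 genes by the edgeR test of the difference itself. For MBD6 the TET2 KO effect exceeded the TET2 WT effect by 0.75 on the log2 scale, and for TET2 the difference was -0.45. The largest differences among genes with at least 5 CPM in a group were those of OOSP4B (-7.16), the pseudogene CES1P1 (-7.01), ENSG00000285471 (-6.30), the pseudogene RPLP0P2 (-6.29), NRP1 (-6.05), MS4A4E (-5.88), TCN1 (-5.83) and ENSG00000197585 (-5.82). Each of these 8 was lower in TET2 KO libraries labelled shMBD6. Several other groups lay near the floor. TET2 WT shControl averaged 0.96 CPM for OOSP4B, 0.57 for CES1P1, 0.78 for RPLP0P2 and 0.77 for NRP1. TET2 KO shMBD6 averaged 0.62 CPM for CES1P1, 0.78 for RPLP0P2 and 0.43 for NRP1. The size of the difference is uncertain for these genes. Pseudogenes share sequence with their parent genes, so their counts are uncertain. Of 176 other genes named by size of change or level, 171 differed as well, by -5.54 to 5.58.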

How the results depend on the processing

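The number of genes changed was 8279 to 9179 when 1 TET2 KO library was left out, against 9465 with all, and the number changed at least 2-fold was 2051 to 2517 against 2354. Requiring a mean of at least 1 CPM gave 1292 genes changed at least 2-fold, since fewer genes were tested. The interaction was called for 12150 to 13178 genes. The split of calls was 6046 higher and 4047 lower with total gene counts, 4719 and 4689 with no filter, 4590 and 4146 with only the 6 TET2 KO libraries (1602 changed at least 2-fold), and 4448 and 5605 with DESeq2. The increase of MBD6 passed the threshold with no filter (0.23), total gene counts (0.31), DESeq2 size factors (0.20), a mean of at least 1 CPM (0.18), only the 6 TET2 KO libraries (0.23), the replicate block (0.19), DESeq2 (0.20) and without shMBD6 replicate 1. Over the libraries left out it was 0.10 to 0.26, and TET2 was -0.49 to -0.42. The median of the G1 cyclins and CDK inhibitors turned from -0.15 to 0.014 with a mean of at least 1 CPM, and that of NOD-like receptor signalling from -0.12 to 0.0029 without shMBD6 replicate 1 (range -0.14 to 0.0029). The cause was not tested. Over all alternatives the median of 16 of 40 gene lists took both signs, among them JAK-STAT signalling (-0.13 to 0.016), sterol and fatty acid synthesis (-0.12 to 0.033), PR-DUB (-0.086 to 0.063), PRC2 (-0.080 to 0.11) and HUSH (-0.055 to 0.099). Of 184 genes named by size of change or level and followed through the alternatives, 168 kept their direction and call under every one. MBD6 and TET2 are not in that count. Neither are other genes named in the text, such as SPTB, ALAS2, ASXL2 and NSUN2. Outside the fits that left out a library, BCL3 lost its call with total gene counts, and DUSP4 and RING1 with no filter. COL6A1 and ITGA6 lost theirs with only the 6 TET2 KO libraries.

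Replicate numbers are shared by the groups, but same-numbered libraries did not deviate together (r = 0.017, -0.0053 and 0.046 over 15586 genes), so the numbers were not taken as pairing. The replicate block gave 9579 genes changed, 4151 higher and 5428 lower.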

Other observations

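Although most genes called in both genotypes moved in opposite directions, 787 moved the same way, 101 of them higher and 686 lower. Above 100 CPM these were 513 of the 1674 genes called in both. The genes named here were chosen from them after their values were seen. LINC00508, a long noncoding RNA, was at 24.1 to 25.9 CPM in the 3 TET2 KO shControl libraries and 40.3, 38.8 and 39.0 CPM in the TET2 KO libraries labelled shMBD6 (log2 change 0.66, and 0.95 in TET2 WT). In TET2 WT LINC00508 was near the floor, at 0.24, 0.096 and 0.31 CPM in shControl against 0.32, 0.58 and 0.37 CPM in shMBD6. CD96, an immunoglobulin-family receptor, was at 20.0, 18.2 and 17.1 CPM against 31.8, 34.3 and 33.8 CPM (0.85 and 0.63), and in TET2 WT averaged 2.16 and 3.36 CPM. FYB1, an adaptor protein of haematopoietic cells, was lower, at 116, 120 and 124 CPM against 75.9, 83.3 and 82.3 CPM (-0.57 and -0.98). The groups did not overlap in TET2 KO for any of the 3. CD96 and FYB1 overlap another gene on the same strand.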
